A study of Mus musculus with 12 samples.

Results

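The genes described here are 10 of the 22609 gene symbols in the count files: Pou4f1, Pou4f2, Pou4f3, Isl1, Runx1, Runx3, Prdm12, Tlx3, Shox2 and Etv1. They were chosen by name as transcription factors of the sensory neuron lineage. No measured value served as a rule, but this choice, like that of the gene lists below, was made with earlier results of these data known. RNA was sequenced from neuron-enriched fractions of dorsal root ganglia (DRG, the sensory ganglia beside the spinal cord) and trigeminal ganglia (TG, the sensory ganglia of the face) of naive mice, C57BL in the labels and C57BL/6J in the study's methods, given as 3 to 4 months old in the labels, while the study's methods give a younger range. Each ganglion was taken from both sexes, giving 12 libraries in 4 groups with 3 replicates each. No group carried a transgene or received a drug, and per the methods the females were in the estrous phase and the DRG were lumbar. The fractions were made by density on Percoll, so glia and other cells of the ganglion remained in them. Whether the 3 libraries of a group came from 3 separate animals is not stated for each library, so p-values measure only the spread between these samples, which may be technical.

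These factors act in a sequence. Pou4f1 and Isl1 are made by nearly all newborn sensory neurons and end the progenitor programme, and later factors then divide the neurons into classes. Runx1, Prdm12 and Tlx3 are known from pain, itch and temperature neurons, Runx3 and Etv1 from proprioceptors, which sense muscle stretch, and Shox2 from touch neurons. Several of them stay on in the adult ganglion.

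The libraries held 7511765 to 15396090 reads in genes, so that 3 counts, the smallest level taken as detectable, corresponded to 0.207 to 0.357 CPM. CPM is the count of a gene divided by the reads in genes, brought to a common total and scaled between libraries by TMM factors, and RPKM is the same per kilobase of exon. All 12 sensory neuron markers examined, among them Rbfox3, Snap25 and Avil, passed the filter on low counts, and their summed level was 6450 to 13124 CPM in DRG and 6898 to 10242 CPM in TG. None of the 12 was called between TG and DRG, where 0.964% of all genes tested were called. The glial, fibroblast and vessel markers were present too: satellite glia genes summed to 1380 to 2814 CPM in DRG and 1577 to 2694 CPM in TG. The defining markers of central glia Olig1, Olig2 and Mog, and the motor neuron marker Mnx1, had at most 3 counts in every library. Other genes of the same lists were present. Aqp4 of the central glia list had a mean of 30.5 CPM in DRG and 36.2 CPM in TG. Slc5a7 of the spinal and sympathetic neuron list had 5.04 and 13.1 CPM, and that list summed to 52.5 CPM in male TG 1. Female DRG 1 and female TG 3 correlated least with the other libraries of their groups, with mean r of 0.842 and 0.882.

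Sequences show what a short read can and cannot tell about these genes. Pou4f1 and Pou4f2 are paralogs that share one long identical stretch in the later part of their coding sequences, and a read of 50 bases that falls wholly inside it fits both genes. The stretch is shown because it is the place where the counts of the 2 genes could be confused. It covers 71 bases, in Pou4f1 exon 2 of 3 at mm9 chr14:104865271-104865341 on the minus strand and in Pou4f2 exon 2 of 2 at mm9 chr8:80958961-80959031 on the minus strand, and it lies inside the coding sequence of both.
Pou4f1 and Pou4f2: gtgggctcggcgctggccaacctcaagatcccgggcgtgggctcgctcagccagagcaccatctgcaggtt
Of all 50-base words in their coding transcripts, 0.901% of those of Pou4f1 and 0.727% of those of Pou4f2 also occurred in another gene. Few reads could thus be shared between the 2 paralogs.

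For Etv1 the shared part was larger. Of its 50-base words, 20.6% also occurred in Gm5454, a single-exon gene at mm9 chr13:104146330-104147784 that has no row in the count files, with a longest identical run of 626 bases. Such reads have more than 1 possible origin and were not counted, so the Etv1 level is understated, and the share of its words concerned is the same in all libraries. The Etv1 gene lies at mm9 chr12:39505967-39594802. The 250 bases before the first of its 2 RefSeq starts are shown because Etv1 was the one gene of the 10 called between the ganglia. They span chr12:38779832-38780081 on the plus strand of GRCm38.p6, and capitals mark the 1 match to TGTGGT, the core that RUNX proteins bind.
Etv1 upstream: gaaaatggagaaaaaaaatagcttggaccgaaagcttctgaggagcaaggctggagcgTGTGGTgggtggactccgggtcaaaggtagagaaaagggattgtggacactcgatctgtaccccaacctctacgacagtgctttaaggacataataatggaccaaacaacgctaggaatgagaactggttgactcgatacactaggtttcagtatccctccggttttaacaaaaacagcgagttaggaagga
TGTGGT, looked for on both strands, was in 2 of the 12 upstream regions searched for 9 of the 10 genes, 1 of Etv1 and 1 of Runx3. It was in 14% of all 32851 upstream regions searched. No region of Pou4f3 was searched. TAATTA, a homeodomain core, was in 0 of the 12 against 4.84% of all regions searched, and CCGGAAG, an ETS core, was in 0 of the 12 against 6.91%. A match of so few letters is a description of the sequence only.

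The first question was at what level each factor stood in the 2 ganglia. Per length, Isl1, the LIM homeodomain factor of sensory neurons, was the most abundant at 37.2 ± 13.5 RPKM (SD, n = 12), followed by Pou4f1, the POU factor also called Brn3a, at 22.2 ± 3.33 RPKM. Isl1 was above Pou4f1 in 9 of 12 libraries. Runx1, the runt-domain factor of nociceptors, stood at 12.4 ± 4.21 RPKM and below Pou4f1 in 11 of 12 libraries. Prdm12, a PR-domain factor of nociceptors, stood at 10.1 ± 4.06 RPKM and Etv1, an ETS factor, at 8.51 ± 3.55 RPKM. These 2 neighbours did not keep one order, since Prdm12 was above Etv1 in 3 of 6 DRG and 5 of 6 TG libraries. The Etv1 level is also understated, because reads shared with Gm5454 were not counted, so its place next to Prdm12 is not settled.

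The next genes in the order lay close together. Pou4f3 (Brn3c), best known from inner ear hair cells, had 5.19 ± 1.83 RPKM, the homeobox gene Tlx3 had 4.73 ± 2.37 RPKM, and Pou4f2 (Brn3b), best known from retinal ganglion cells, had 2.87 ± 1.44 RPKM. Pou4f3 was above Tlx3 in 6 of 6 TG libraries and in 1 of 6 DRG libraries. Runx3 at 0.332 ± 0.241 RPKM and Shox2 at 0.250 ± 0.207 RPKM were the lowest, and each was above the other in 6 of 12 libraries. Their raw counts ran from 0 to 42 and from 0 to 23, so both were near the detection limit in several libraries and no fold change of theirs is well measured.

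**Figure D1:**
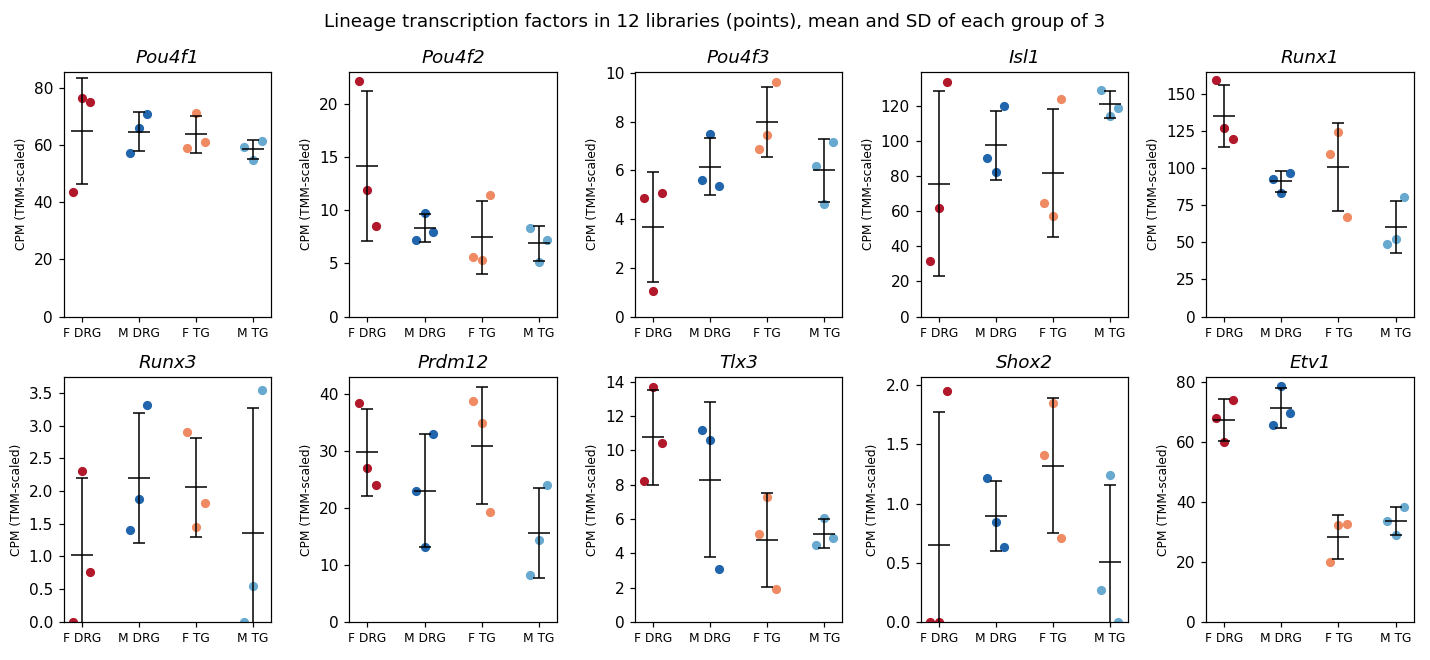
Level of each of the 10 factors in CPM (vertical axis, from 0, a separate scale for each gene) in the 12 libraries, with points for libraries and black marks for the mean and SD of each group of 3 (F female, M male; SD bars stop at 0). The 6 DRG points of Etv1 lie between 59.9 and 78.6 CPM, above all 6 TG points at 20.0 to 38.4 CPM, while every other gene overlaps between ganglia.

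The comparison of TG with DRG asked which of the factors differed between cranial and spinal sensory neurons. Of the 10 genes, 1 was lower in TG and 0 were higher at an adjusted p under 0.05 (edgeR quasi-likelihood test, Benjamini-Hochberg over 14829 genes), where 0.964% of all genes tested were called, 0.337% lower and 0.627% higher. With a fold change above 2 required as well, the same 1 remained, against 0.769% of all genes. All 10 passed the filter on low counts. By the unadjusted p under 0.05, 3 of the 10 passed, Etv1, Runx1 and Tlx3, against 8.83% of all genes. The median log2 fold change of the 10 was -0.17 and that of all genes was -0.01. In bulk fractions, fewer cells of a type and less RNA per cell cannot be told apart, which holds for each difference given here.

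Etv1 was the gene called. Its lowest, median and highest DRG libraries had 59.9, 68.8 and 78.6 CPM, and its TG libraries had 20.0, 32.5 and 38.4 CPM. The highest TG library was below the lowest DRG library, which was true of 1.36% of all genes in one direction or the other. The mean fell from 69.2 ± 6.51 CPM in DRG to 31.0 ± 6.20 CPM in TG (SD, n = 6 each), which is 2.24-fold lower. On the log2 scale this was -1.16 with a standard error (SE) of 0.19, a 95% interval of -1.56 to -0.77 and an edgeR adjusted p of 0.00255. The difference was of like size in each sex, -1.24 among females and -1.08 among males. The 6 libraries of 1 sex did not carry the call alone (edgeR adjusted p = 0.592 and 0.0913). Etv1 did not overlap between ganglia in either sex, but the share of all genes for which this held within 1 sex was not counted. Among females, Pou4f3 and Tlx3 did not overlap either. Scaling the libraries to their neuron marker counts in place of all genes gave -0.99 with an edgeR adjusted p of 0.0736, and the level of those markers as a covariate gave -1.14 with an edgeR adjusted p of 0.00108.

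Runx1 and Tlx3 stood lower in TG without passing the test. Runx1, at mm9 chr16:92601712-92826311 on the minus strand, had 83.2, 107.9 and 158.8 CPM in its lowest, median and highest DRG libraries and 48.6, 73.9 and 124.1 CPM in TG, with overlap. Its log2 fold change was -0.51 ± 0.20 (SE), with a 95% interval of -0.92 to -0.10 and an edgeR adjusted p of 0.382. Runx1 shares 106 exonic bases, 1.36% of its exons, with the antisense gene Gm16801, and the strand setting of the counting was not stated. Runx1 passed the threshold in 3 of 25 alternatives, at -0.62 to -0.54 with edgeR adjusted p-values from 0.0194 to 0.0366. Of these, 2 were planned and 1 was chosen after the data were seen. In the same 3 the genes called among all tested rose from 143 to 562, 507 and 814. The passes are thus not read as particular to Runx1.

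Tlx3, at mm9 chr11:33100752-33103588 on the minus strand and known for the glutamatergic and nociceptive identity of neurons, had 3.07, 10.5 and 13.7 CPM in DRG and 1.89, 5.01 and 7.31 CPM in TG. Every DRG library but male DRG 3 was above every TG library. The log2 fold change was -0.93 ± 0.43 (SE), with an interval of -1.84 to -0.02 and an edgeR adjusted p of 0.549.

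The 3 POU4 genes and Isl1 gave no call. Pou4f1 had the narrowest interval of the 10, with 43.4, 68.3 and 76.4 CPM in DRG and 54.8, 60.2 and 71 CPM in TG and a log2 fold change of -0.09 (95% interval -0.47 to 0.30, edgeR adjusted p = 0.988). The intervals of the other genes were wider. Isl1 had 31.7, 86.3 and 133.9 CPM in DRG and 57.1, 116.7 and 129.3 CPM in TG, and its log2 fold change was 0.21 with an interval of -0.38 to 0.80. Isl1 varied within a ganglion far more than Pou4f1 did. Pou4f2 had 7.19 to 22.1 CPM in DRG and 5.11 to 11.4 CPM in TG (log2 fold change -0.60, interval -1.34 to 0.15). Pou4f3 had 1.07 to 7.50 CPM in DRG and 4.63 to 9.61 CPM in TG (log2 fold change 0.54, interval -0.40 to 1.48).

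Prdm12, Runx3 and Shox2 were not called either. Prdm12, at mm9 chr2:31495557-31511315 on the plus strand, had 13.1, 25.5 and 38.4 CPM in DRG and 8.28, 21.6 and 38.8 CPM in TG, with a log2 fold change of -0.25 and an interval of -0.88 to 0.37. Its exons share 200 bases, 8.09%, with the antisense gene Gm13425. The intervals of Runx3, from -2.22 to 2.51, and of Shox2, from -2.77 to 2.98, were so wide that a 4-fold difference in either direction lay inside them. The exons of Shox2 share 153 bases, 4.54%, with Rsrc1 on the other strand, a gene that is in the count files.

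**Figure D2:**
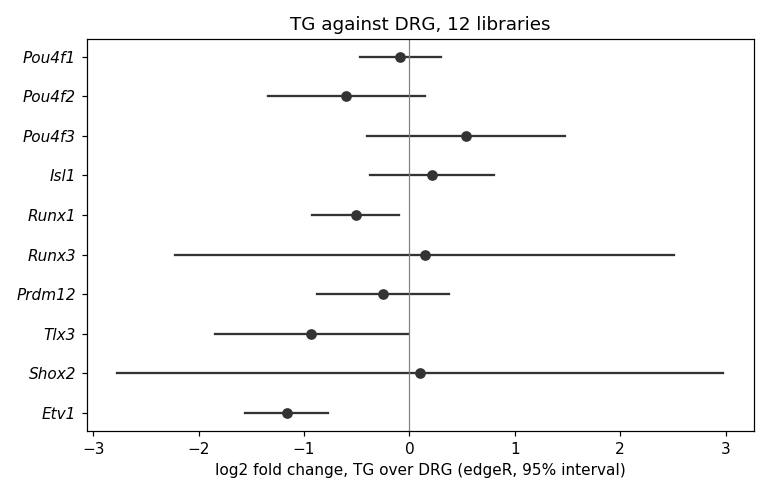
Log2 fold change of TG over DRG for the 10 factors (horizontal axis, negative values lower in TG; points are edgeR estimates and lines 95% intervals over 12 libraries). Etv1 at -1.16 is the only gene called, and the lines of Runx3 and Shox2 are the longest.

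Ratios between 2 factors in the same library do not depend on scaling between libraries. A set of 5 was compared, each as log2 of the 2 counts with 0.5 added, by a two-sided exact permutation test over all 924 splits. The ratio of Pou4f3 to Pou4f1 was higher in TG by 0.73, from -3.88 ± 1.13 in DRG to -3.15 ± 0.29 in TG (SD, n = 6 each), with an exact p of 0.0736 and a Benjamini-Hochberg adjusted p of 0.368. Without female DRG 2, which had 12 counts of Pou4f3, the difference was 0.29, and it was 1.37 among females and 0.095 among males. The other ratios, Runx3 to Runx1, Pou4f1 to Isl1, Pou4f2 to Pou4f1 and Tlx3 to Prdm12, had adjusted exact p-values from 0.409 to 0.654. The balance between these factors was not shown to differ between the ganglia.

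Genes that work with the 10 factors or sit beside them in the lineage were examined as lists. Of 27 partners and relatives, such as the runt cofactor Cbfb, the LIM cofactor Ldb1 and the TALE homeobox genes, 20 passed the filter. Their median log2 fold change was -0.01. Of the 20, 1 was higher in TG and 0 were lower, against 0.627% and 0.337% of all genes tested. The 1 was Meis2, a TALE homeobox factor, with 5.60, 13.3 and 15.8 CPM in the lowest, median and highest DRG library and 32.1, 39.9 and 43.6 CPM in TG. Meis2 did not overlap between ganglia, which was true of 1.36% of all genes (log2 fold change 1.70 ± 0.26 SE, edgeR adjusted p = 0.00141). It moved opposite to Etv1.

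Of 36 other sensory lineage transcription factors, 31 passed the filter and 0 were called by edgeR, against 0.964% of all genes tested. The median log2 fold change of the 31 was -0.02. The 2 with the smallest p were Mafa, a bZIP factor of early-born mechanoreceptors, and Eya1, a transcriptional cofactor of sensory placodes. Mafa had 0 counts in all 6 DRG libraries and 28, 60, 0, 36, 26 and 28 counts in the TG libraries (edgeR adjusted p = 0.0609). Its mean TG level of 2.52 CPM was at least 9.02-fold higher than a floor of 3 counts per DRG library. Eya1 had 1 to 15 counts in DRG and 32 to 83 in TG (edgeR adjusted p = 0.0686). It did not overlap between ganglia, which was true of 1.36% of all genes.

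Of 29 receptor, channel and peptide genes that mark the neuron classes, 28 passed, 2 were higher and 4 were lower in TG. Of all genes tested, 0.627% were higher and 0.337% were lower. The median log2 fold change of the list was -0.44, against -0.01 for all genes. This list was chosen with earlier results of these data known, so its counts are not read as a result about such genes. The cold channel Trpm8 was higher in TG at 366 ± 75.9 against 57.6 ± 8.50 CPM, as was Ret, the GDNF family receptor, at 814 ± 203 against 473 ± 85.1 CPM. Th, the tyrosine hydroxylase of low-threshold C fibres, was lower in TG at 6.59 ± 2.06 against 74.1 ± 13.4 CPM. Mrgprd (log2 fold change -0.78), Trpv1 (-0.76) and Calcb (-1.10) were the other 3 lower in TG. These 6 had edgeR adjusted p-values from 1.39e-07 to 0.0425.

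The study's own question was the comparison of females with males, made in each ganglion. The criteria here were a fold change above 2, an unadjusted p under 0.05 and a mean CPM above 1 in the higher sex, with CPM standing in for the RPKM that the study used. With RPKM above 1 required, the same factors met them, and the genes meeting them went from 694 to 679 in DRG and from 1038 to 1009 in TG. In DRG 9 of the 10 factors could be tested, Shox2 having too few counts, and 0 met the criteria, against 4.97% of the 13963 genes tested, 2.01% higher in females and 2.96% higher in males. In TG 1 of the 10 met them, Prdm12, against 7.41% of the 14009 genes tested, 5.15% higher in females and 2.26% higher in males. By an adjusted p under 0.05 no factor was called by edgeR in either ganglion, where 0.0358% of genes in DRG and 0.0357% in TG were. In TG that rested on 1 library: without female TG 3, Isl1, Runx1 and Prdm12 all passed (edgeR adjusted p = 0.00958, 0.0208 and 0.0351). The share of all genes passing an adjusted p under 0.05 in that fit was not counted. By the criteria of fold and unadjusted p, the genes went there from 1038 to 2532. The passes are thus not read as particular to these factors. By the unadjusted p under 0.05 the count was 0 in DRG and 2 in TG (Prdm12 and Runx1), against 11.8% and 20.7% of all genes.

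Prdm12 in TG had 38.8, 34.9 and 19.2 CPM in the female libraries and 8.28, 14.4 and 24.1 CPM in the male libraries. The lowest female library was below the highest male one, whereas 23.7% of all genes in TG did not overlap between the sexes. The log2 fold change of female over male was 1.04 ± 0.42 (SE, edgeR adjusted p = 0.205). Prdm12 no longer met the criteria without female TG 1, female TG 2, male TG 1 or male TG 2, where its log2 fold change was 0.80, 0.90, 0.74 and 0.98, nor with GC content and length offsets, at 0.51. It met the criteria in 7 of 14 alternatives in all. In DRG it had 38.4, 27.0 and 24.0 CPM in females and 23.0, 13.1 and 32.9 CPM in males. The log2 fold change there was 0.36 ± 0.40 (SE).

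Runx1 stood higher in females in both ganglia without meeting the criteria. Female DRG libraries had 158.8, 127.1 and 119.2 CPM and male DRG libraries 92.9, 83.2 and 96.7 CPM, without overlap, which 17.8% of all genes in DRG showed. Female TG libraries had 109.7, 124.1 and 67.2 CPM and male TG libraries 48.6, 51.9 and 80.5 CPM. The log2 fold changes were 0.57 ± 0.27 in DRG and 0.79 ± 0.31 in TG (SE), with edgeR adjusted p-values of 0.423 and 0.198. Without male TG 3 the value in TG was 1.06, past the criteria, and without female TG 3 it was 0.95.

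Isl1 went the other way. It had 31.7, 61.8 and 133.9 CPM in female DRG and 90.4, 82.2 and 119.9 CPM in male DRG, and 65.0, 57.1 and 124.0 CPM in female TG and 129.3, 114.3 and 119.1 CPM in male TG. In each ganglion female replicate 3 stood with or above the males and the other 2 female libraries below them. The log2 fold changes were -0.37 ± 0.43 in DRG and -0.52 ± 0.29 in TG (SE, edgeR adjusted p = 0.792 and 0.321). Single libraries set these values: in DRG it was -1.06, past the criteria, without female DRG 3 and -0.0066 without female DRG 1, and in TG it was -0.99 without female TG 3. With GC content and length offsets it was -0.072 in DRG and -0.11 in TG.

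Several features of the libraries moved with these values. Female DRG 1, female DRG 2, female TG 1 and female TG 2 had the lowest sums of the 12 neuron markers, 6450, 7227, 6990 and 6898 CPM, where the other 8 libraries had 8010 to 13124 CPM. Their summed macrophage markers were the highest, at 221, 296, 270 and 380 CPM against 70.0 to 194 CPM in the other 8, and their endothelial markers summed to 511, 518, 336 and 540 CPM against 157 to 360 CPM. The same 4 libraries had 50.4%, 48.5%, 47.7% and 49.1% of their reads outside annotated genes, counted over the reads that lay in 1 gene or in none. Male TG 3, the male TG library with the highest Runx1 and Prdm12, had 47.9%, and the other 5 male libraries had 37.6% to 42.6%. Female TG 3, the female library with the lowest Runx1 and Prdm12, had 43.5%. Female DRG 3 had 46.4%, together with the highest neuron marker sum, 13124 CPM, and an Isl1 level of 133.9 CPM. The part of these features in the values of Runx1, Prdm12 and Isl1 was not tested.

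**Figure D3:**
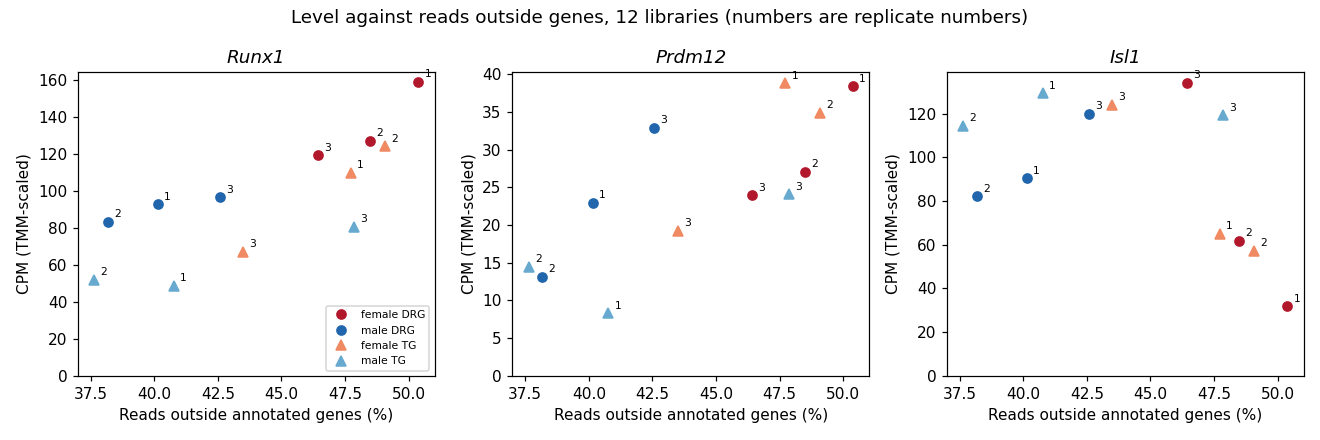
Level of Runx1, Prdm12 and Isl1 in CPM (vertical axes, from 0) against the percentage of reads outside annotated genes (horizontal axis) in the 12 libraries, with circles for DRG, triangles for TG and replicate numbers beside the points. Male TG 3 at 47.9% stands apart from the other 5 male libraries in this percentage, and its Runx1 level of 80.5 CPM is the highest of the male TG libraries.

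The remaining factors did not show a sex difference that these libraries could resolve. The log2 fold change of Etv1 was -0.08 in DRG (95% interval -0.65 to 0.50) and -0.20 in TG (interval -0.82 to 0.42). For Pou4f1 it was 0.01 in DRG (interval -0.65 to 0.66) and 0.17 in TG (interval -0.32 to 0.67). Pou4f3 was lower in all 3 female than in all 3 male DRG libraries, with 4.87, 1.07 and 5.08 against 5.61, 7.50 and 5.36 CPM. Such a lack of overlap was seen in 17.8% of all genes in DRG, and the log2 fold change of Pou4f3, -0.73, had an SE of 0.84. For Pou4f2, Tlx3 and Runx3 the edgeR adjusted p-values ran from 0.573 to 0.971. Whether the sex effect differed between the ganglia was tested as an interaction, which was called for 0 of the 10 factors and 0% of all 14829 genes by edgeR. At an unadjusted p under 0.05 it was 0 of the 10 and 1.97% of all genes, and DESeq2 also called 0.

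**Figure D4:**
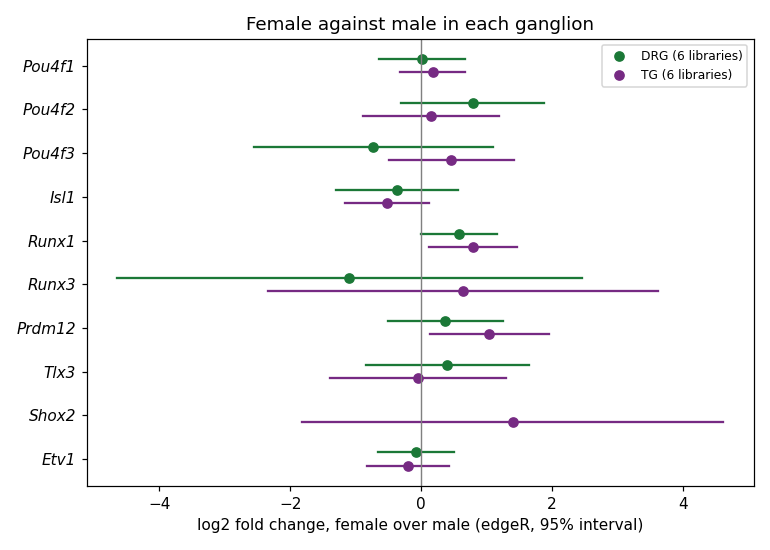
Log2 fold change of female over male (horizontal axis, positive values higher in females) for each factor in DRG (green) and TG (purple), as edgeR estimates with 95% intervals over 6 libraries each. The points of Runx1 (0.57 and 0.79) and Prdm12 (0.36 and 1.04) lie above 0 in both ganglia and those of Isl1 (-0.37 and -0.52) below, and Shox2 in DRG was not tested.

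Across the 12 libraries, some genes followed a factor closely, as a description over samples that share depth, sex and ganglion. Etv1 was most like Hoxa10 and Hoxd10 (Pearson r = 0.938 and 0.936 of log2 CPM), posterior Hox genes that were both called lower in TG (edgeR adjusted p = 1.57e-08 and 0.000103). Runx1 was most like Plcb3 and Atp2b4 (r = 0.977 and 0.971), Isl1 like Pik3r3 and Ltn1 (0.974 and 0.967), and Prdm12 like 8430427H17Rik and Foxo3 (0.956 and 0.940). Pou4f1 was most like Ina, which encodes the neuronal filament internexin, and Rrad (0.95 and 0.911). For Tlx3 they were Gpc6 and Nradd (0.907 and 0.888), for Pou4f3 Adra2c and Grhpr (0.899 and 0.886), for Pou4f2 Dok1 and BC013529 (0.855 and 0.832), for Runx3 Naip5 and Il6ra (0.891 and 0.886) and for Shox2 Bcat2 and BC037032 (0.892 and 0.892). Among the factors themselves, the closest pair was Runx1 and Prdm12 (r = 0.845) and the most opposed was Isl1 and Runx1 (-0.718). The low counts of Runx3 and Shox2 leave their r with little meaning.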

How the data were processed

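The members and the gene lists were chosen with earlier results of these data known. The authors depleted ribosomal RNA, made stranded libraries from total RNA, aligned 50-base single reads to mm9 with TopHat2 and counted them with HTSeq; these tools are named in the submitters' processing notes, with versions, annotation and strand setting not given in the sources used here. The deposited files hold raw counts per gene, with 5 summary lines that were left out. Groups and replicate numbers came from the sample titles.

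From these counts, edgeR 4.0.16 in R 4.3.3 (filterByExpr, TMM factors, quasi-likelihood F-test, Benjamini-Hochberg adjustment over all genes tested) was fitted to all 12 libraries for TG against DRG, as the mean of both sexes, and to 6 libraries for each sex comparison. DESeq2 1.42.0 was an alternative. The authors used DESeq for sex. The SE of a log2 fold change was its size over the square root of F. Intervals are 95%. Floors cover counting error only, since reads copied by PCR and lacking identifiers are not separate molecules. Positions and lengths came from GENCODE for mm9, matching 95.8% of symbols, and upstream sequences from RefSeq (GRCm38.p6). The search of upstream regions left out the chromosome that carries Pou4f3, so the share of regions with a match excludes it. Genes outside the 10 were named where called in a list (at most 6 by smallest p, or 2 where none was), as the 2 genes with the highest r over 12 libraries, or for overlap on the genome. The test was checked on simulated counts: for TG against DRG, over 14829 genes, it called 22% of genes changed 2-fold and 70% of those changed 4-fold.

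None of the 11 marker lists held a gene called between TG and DRG, where 0.964% of all genes tested were called. In the neutrophil and mast cell list, S100a8 and S100a9 stood lower in TG without a call. Their means were 2.36 against 11.8 CPM and 2.63 against 16.8 CPM (edgeR adjusted p = 0.241 and 0.113). Most of the summed level of that list was Kit, at 170 CPM in TG and 205 CPM in DRG. Summed levels of macrophage genes were 91.1 to 296 CPM in DRG and 70.0 to 380 CPM in TG, and those of lymphocyte genes 1.69 to 6.42 and 0.0788 to 1.94 CPM. For Schwann cell genes they were 1784 to 2766 and 1866 to 2783 CPM, for fibroblast genes 837 to 1662 and 586 to 1449 CPM, for endothelial genes 157 to 518 and 234 to 540 CPM, for mural genes 177 to 431 and 183 to 279 CPM, for neutrophil and mast cell genes 179 to 300 and 146 to 210 CPM, for central glia genes 20.2 to 40.4 and 29.2 to 49.6 CPM, and for spinal and sympathetic neuron genes 2.13 to 8.20 and 2.46 to 52.5 CPM.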

Additional observations from a re-analysis of the deposited data

Results flagged for a closer look

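In 5 cases a single library lay apart from the other 5 of its ganglion by more than Dixon's 95% critical value, which chance exceeds in about 1 of 20 such groups. These cases share genes or libraries with one another, so they are not 5 separate events. The Pou4f2 level of female DRG 1 was 22.1 CPM where the next DRG library had 11.9 CPM, a gap of 0.684 of the range. The log2 ratio of Pou4f2 to Pou4f1 in the same library was -0.97 against -2.68 in the nearest, a gap of 0.784 of the range. Its log2 ratio of Runx3 to Runx1 was -11.4 against -7.21, a gap of 0.639, and that of male TG 1 was -10.1 against -6.47, a gap of 0.645; both libraries had 0 counts of Runx3. The log2 ratio of Pou4f3 to Pou4f1 in female DRG 2 was -6.10 against -3.87, a gap of 0.75, on 12 counts of Pou4f3.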

How the results depend on the processing

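The call of Etv1 in TG against DRG held in 22 of 25 alternatives, at -1.22 to -1.07 without any one replicate, and its direction in 25. The number of the 10 factors called was 0 with female libraries only, with male libraries only (fewer samples in both) and with libraries scaled to neuron marker counts. It was 2, Etv1 and Runx1, with libraries numbered 1 and 2 only, an alternative added after seeing the data. The same 2 were called with the replicate block, with or without GC content and length offsets (Runx1 -0.54 and -0.62). Shared animals are not stated, and the main fit did not take the replicate numbers as pairing TG with DRG libraries. The correlation of deviations of same-numbered TG and DRG libraries was 0.0277 to 0.212 in females and 0.0430 to 0.216 in males. In each sex 2 of 3 pairs correlated best with their own number. These values do not settle whether the numbers pair libraries, and the number of factors called, 1 or 2, depends on that choice. Replicate 3 had the lowest share of not uniquely aligned reads (38.4% to 41.2%, against 42.9% to 49.5%) and the lowest satellite glia sum in each of the 4 groups. Between the sexes the correlation of same-numbered libraries was 0.0317 to 0.168 in DRG and -0.10 to 0.01 in TG. The genes called among all tested went from 143 to 562 with the block, 507 with block and offsets, 333 by DESeq2, 218 without a filter, 226 at an adjusted p under 0.1, 312 with the marker covariate, 814 with numbers 1 and 2, and 5 and 58 in one sex, to 344 without female DRG 1 and female TG 3 and to 77 to 231 without one replicate. The counts called in lists went, with the block and without female DRG 1 and female TG 3, from 1 to 3 and 3 for partners higher in TG, from 0 to 1 and 3 for lineage factors higher, and from 4 to 10 and 7 for class genes lower.

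For sex in DRG the number of factors meeting the criteria was 0 to 1 without one replicate. In TG it was 0 to 2 without one replicate, 0 with the offsets, 0 with the replicate block, 0 with both, 2 with numbers 1 and 2 only and 2 at a fold of 1.5. All genes meeting them went in DRG from 694 to 1774 with numbers 1 and 2, 1645 at a fold of 1.5, 446 with the offsets, 375 with offsets and block and 377 to 1585 without one replicate, and in TG from 1038 to 3496, 2718, 297, 267 and 585 to 2532. Prdm12 in TG no longer met the criteria with the replicate block, at 1.11, or with block and offsets, at 0.64. Fewer samples or genes apart, the cause of these changes was not tested.

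Directions that changed belonged to differences that were not called. For TG against DRG without one replicate, Runx3 ranged from -0.97 to 0.83, Shox2 from -0.80 to 3.07 and Isl1 from -0.0011 to 0.56. Without female DRG 1 and female TG 3 together, Isl1 was -0.18, Runx3 -0.10 and Shox2 -0.026. Runx3 was -0.070 with the offsets, -0.15 with the replicate block and -0.30 with both, -0.79 with numbers 1 and 2 only and -0.71 in males. Pou4f1 was 0.0066 with numbers 1 and 2 and 0.12 when scaled to neuron markers, Prdm12 was 0.068 in females and Pou4f3 -0.034 in males. The ratio of Runx3 to Runx1 was -0.45 to 1.22 without one replicate, -0.67 without female DRG 1 and female TG 3 and -1.58 in males, and that of Tlx3 to Prdm12 was 0.11 in males. For sex in DRG, Pou4f1 was -0.12 to 0.22 without one replicate, -0.11 with the offsets, -0.027 with the replicate block, -0.13 with both and -0.0033 with numbers 1 and 2, and Etv1 was 0.094 without TMM factors. For sex in TG, Pou4f2 was -0.33 to 0.32 and Tlx3 -0.56 to 0.27 without one replicate, and -0.29 and 0.24 with numbers 1 and 2. Tlx3 was 0.076 without TMM factors, Pou4f1 was -0.37 with the offsets and -0.42 with offsets and replicate block, and Etv1 was 0.020 with the offsets. Depth limits Runx3 and Shox2, which had at most 42 and 23 counts.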
